A study of Caenorhabditis elegans with 2 samples.

Results

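The members are the protein-coding genes of Caenorhabditis elegans whose symbol is his- followed by a number, which is 72 of 19985 protein-coding genes in the Ensembl annotation of the WBcel235 assembly. They were set against binding of PHA-4, measured by chromatin immunoprecipitation and sequencing (ChIP-seq) in whole late embryos of strain OP37, both sexes pooled. That strain carries the unc-119(ed3) III mutation and the insertion wgIs37, from which PHA-4 fused to eGFP is made. The series holds 1 group of 2 biological replicates, which the labels list as separate biosamples, with control alignments but no other treatment, genotype or stage. The labels do not say which promoter drives the tagged copy. Because whole animals were used, a peak gives no cell type, and nothing here measures how strongly a histone gene was transcribed.

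Histones package DNA into nucleosomes. A core of H2A, H2B, H3 and H4 is wrapped by DNA, and a linker histone (H1) sits where the DNA enters and leaves. The bulk of core histone is made while DNA is copied, from intronless genes kept in many near-identical copies, often as head-to-head pairs that share 1 short promoter. Genes for the variant H3.3 are transcribed outside DNA replication as well. PHA-4 is a forkhead factor of the FoxA type that specifies the worm's foregut, or pharynx, and its embryonic targets extend well beyond that organ.

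Of the 72 genes, 17 encode H2A, 16 encode H2B, 15 encode H3 and 16 encode H4. A further 5 encode H3.3 or H3.3-like proteins (his-69, his-70, his-71, his-72 and his-74), 1 encodes linker histone (his-24), and 2 are fragments with a histone domain (his-39 and his-73). There are 67 genes in 15 clusters of 2 to 13 genes, a cluster being a run of histone genes whose neighbouring starts lie at most 5000 bp apart. The 5 lone genes are his-24, his-71, his-72, his-73 and his-74. Head-to-head pairs with starts at most 500 bp apart number 31 and hold 62 of the 72 genes. Names follow RefSeq, because Ensembl gives the same symbol to more than 1 gene for 36 of the 72. All 72 matched a RefSeq gene at the same coordinates.

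The stretch between the starts of a head-to-head pair, here called the spacer, held 6 of the 11 replicate 1 peaks and 8 of the 16 pooled peaks described here. A summit on a start base was counted as between the starts, which is so for 1 pooled peak, at his-35/his-41. Spacers of different pairs can be almost alike in sequence. The next sequences show the H3/H4 spacers that make this plain, each written towards its H3 gene, from the reference genome (WBcel235). Capitals mark the PHA-4 site, which reads T, A or G, T, T, G or T, A or G, C or T, on either strand. The his-6/his-5 spacer (V:8534978-8535213, minus strand) held a summit in replicate 1, and the his-38/his-40 spacer (X:7309876-7310109, plus strand) held one in the pooled list. The his-2/his-1 spacer (V:16042284-16042519, minus strand) and the his-50/his-49 spacer (V:8847705-8847942, plus strand) held none in any list.
his-6/his-5: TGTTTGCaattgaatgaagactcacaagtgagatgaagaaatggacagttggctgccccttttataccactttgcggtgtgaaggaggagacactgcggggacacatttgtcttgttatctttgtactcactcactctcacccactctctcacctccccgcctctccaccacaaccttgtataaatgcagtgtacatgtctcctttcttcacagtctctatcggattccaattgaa
his-38/his-40: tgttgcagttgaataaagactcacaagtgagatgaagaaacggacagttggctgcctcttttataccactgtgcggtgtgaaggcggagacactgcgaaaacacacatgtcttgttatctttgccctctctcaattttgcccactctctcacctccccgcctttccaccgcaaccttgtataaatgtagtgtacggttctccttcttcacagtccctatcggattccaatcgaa
his-2/his-1: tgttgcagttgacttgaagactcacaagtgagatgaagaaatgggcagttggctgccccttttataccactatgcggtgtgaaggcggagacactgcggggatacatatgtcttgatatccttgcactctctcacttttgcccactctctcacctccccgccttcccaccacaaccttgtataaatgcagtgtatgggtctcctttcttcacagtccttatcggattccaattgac
his-50/his-49: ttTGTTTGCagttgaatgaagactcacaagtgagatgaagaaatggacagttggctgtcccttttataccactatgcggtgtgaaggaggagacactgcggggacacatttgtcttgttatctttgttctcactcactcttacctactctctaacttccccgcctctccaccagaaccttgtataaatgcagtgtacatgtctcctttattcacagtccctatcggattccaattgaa
Aligned end to end, the his-6/his-5 spacer was 94.5% identical to that of his-50/his-49, 89.9% to that of his-2/his-1 and 88.1% to that of his-38/his-40. The spacer of his-50/his-49 was identical to that of his-28/his-27 in another cluster. All 4 printed spacers held TATAAA on both strands, 2 matches each.

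The H2A/H2B spacers have their own sequence, shown next for the pairs with the strongest summits of that kind, written towards the H2A gene and with PHA-4 sites again in capitals. They are his-8/his-7 (V:8533087-8533378) and his-4/his-3 (V:16040516-16040807), both on the plus strand.
his-8/his-7: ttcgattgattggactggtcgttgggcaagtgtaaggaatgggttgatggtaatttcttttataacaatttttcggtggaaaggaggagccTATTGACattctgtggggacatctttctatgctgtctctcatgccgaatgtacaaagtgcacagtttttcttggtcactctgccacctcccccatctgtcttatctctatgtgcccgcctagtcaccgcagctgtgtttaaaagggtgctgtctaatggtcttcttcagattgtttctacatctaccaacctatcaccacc
his-4/his-3: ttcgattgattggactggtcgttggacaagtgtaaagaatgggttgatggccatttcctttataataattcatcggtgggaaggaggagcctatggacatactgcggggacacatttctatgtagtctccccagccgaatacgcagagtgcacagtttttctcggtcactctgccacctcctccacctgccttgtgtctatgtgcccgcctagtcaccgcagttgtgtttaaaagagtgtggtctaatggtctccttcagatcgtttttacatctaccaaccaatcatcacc
These 2 spacers were 87% identical to each other, and each held 1 TATAAA match. The his-8/his-7 spacer was 95.5% identical to 4 spacers with no summit, those of his-51/his-52, his-54/his-53, his-21/his-22 and his-20/his-19, which were identical to one another.

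A gene was taken to have a peak where at least 1 summit fell in its promoter window, from 1000 bp upstream to 500 bp downstream of 1 of its transcript starts. The authors' lists were read separately, 1 per replicate and 1 called on both replicates pooled, so the pooled list is not independent of the others. In replicate 1, 17 of 72 histone genes had a peak (23.6%, exact Clopper-Pearson 95% interval 14.4 to 35.1), against 14.3% of all protein-coding genes. In replicate 2, 2 of 72 had one (2.78%, 0.338 to 9.68), against 3.11% of all protein-coding genes. In the pooled list, 21 of 72 had one (29.2%, 19 to 41.1), against 17.8% of all protein-coding genes. The intervals cover the counting of genes only, and genes that share a peak are not independent. Counted with overlapping windows joined, 10 of 36 windows held a replicate 1 summit.

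The 2 genes with a replicate 2 summit, his-67 and his-68, also had one in replicate 1. All 17 genes of replicate 1 were in the pooled list, which added his-35, his-41, his-38 and his-40. The other 51 genes had no summit in any list. The authors' final list, of 9 peaks, held none at a histone gene. Each peak carries the authors' q-value, and with peaks of q at most 0.05 alone the pooled list left 9 histone genes at 5 peaks (12.5% of 72), against 4.31% of all protein-coding genes.

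By whole series, the replicate 1 list held 5607 peaks, of which 5248 had a q-value of 0.05 or less. The replicate 2 list held 1729, and its smallest q-value was 0.351. The pooled list held 7768, of which 1330 had a q-value of 0.05 or less. Depth is unknown, since the deposited lists give no read counts. The pha-4 gene itself, from which the transgene was made, had summits in its window in all 3 lists, with signal 21.2 (rank 8) in replicate 1 and 5.45 (rank 6) in replicate 2.

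**Figure D1:**
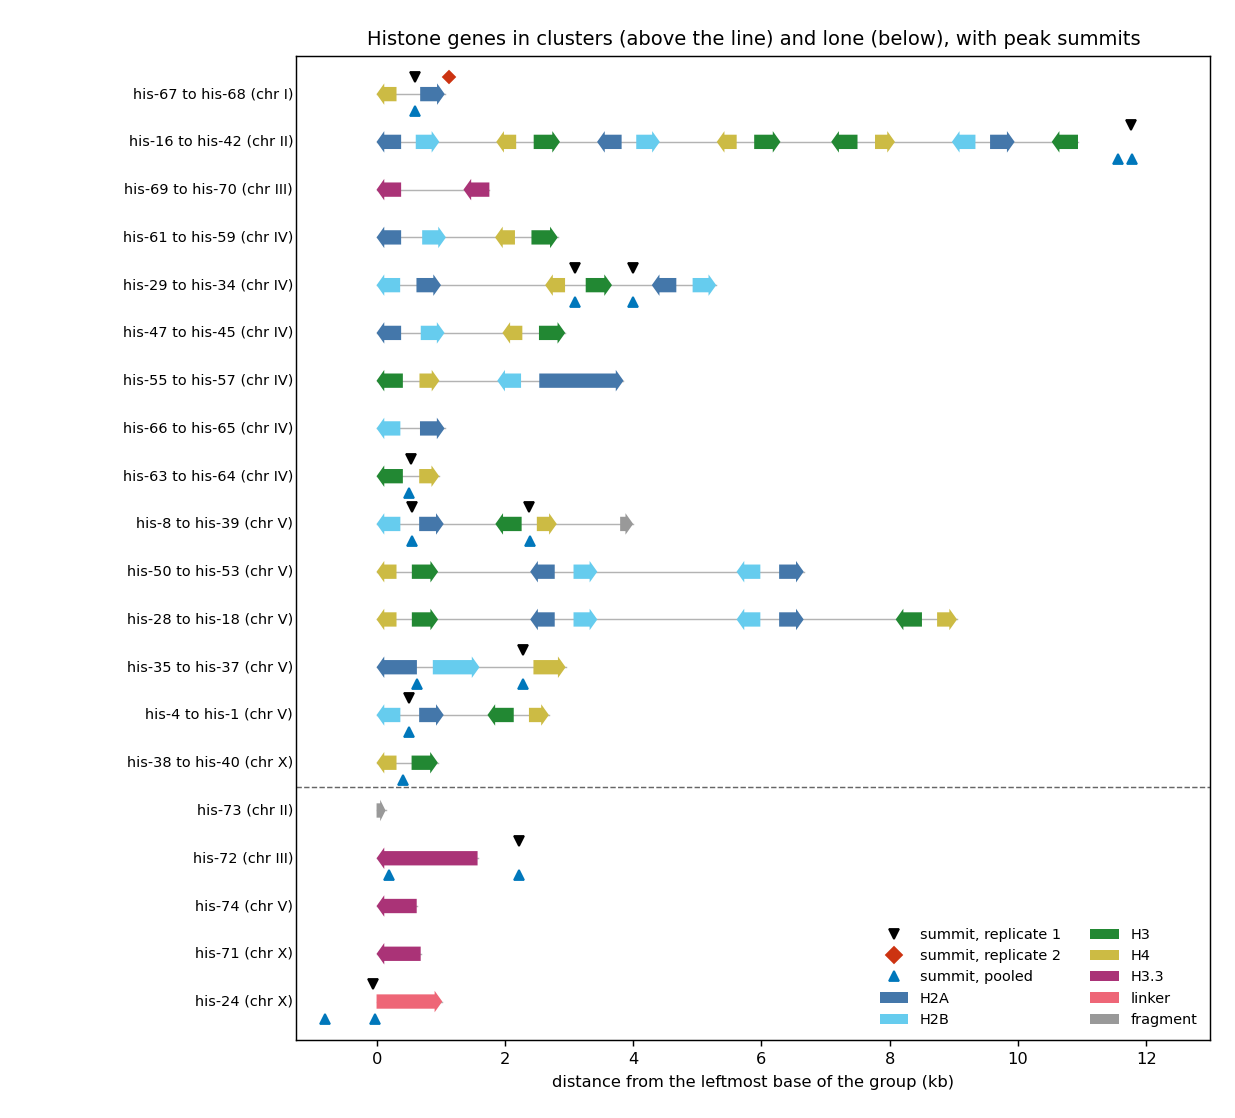
Maps of the 15 histone clusters and, under the dashed line, the 5 lone genes, with the distance in kb from the leftmost base on the x axis, arrows for genes coloured by histone class, and markers for peak summits in the 3 lists. Summits lie between or on head-to-head starts at 8 pairs, 7 clusters have no summit in any list, and the single replicate 2 summit lies at his-67 and his-68.

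Genes that share a peak were treated as one, which left 11 distinct peaks in replicate 1, 1 in replicate 2 and 16 in the pooled list. Each has the authors' signal value, which has no stated unit and is used here to rank peaks within a list. The 11 replicate 1 peaks had a median signal of 4.7 (3.11 to 9.05), against 3.21 for all 2602 peaks of that list in protein-coding windows. All 11 had a q-value of 0.05 or less, as did 2471 of those 2602. The 16 histone peaks of the pooled list had a median of 3.11 (2.17 to 8.57), against 2.99 for all 3413 peaks in protein-coding windows. The histone peaks thus ran from the top 500 of each of these lists to below the median of promoter peaks.

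**Figure D2:**
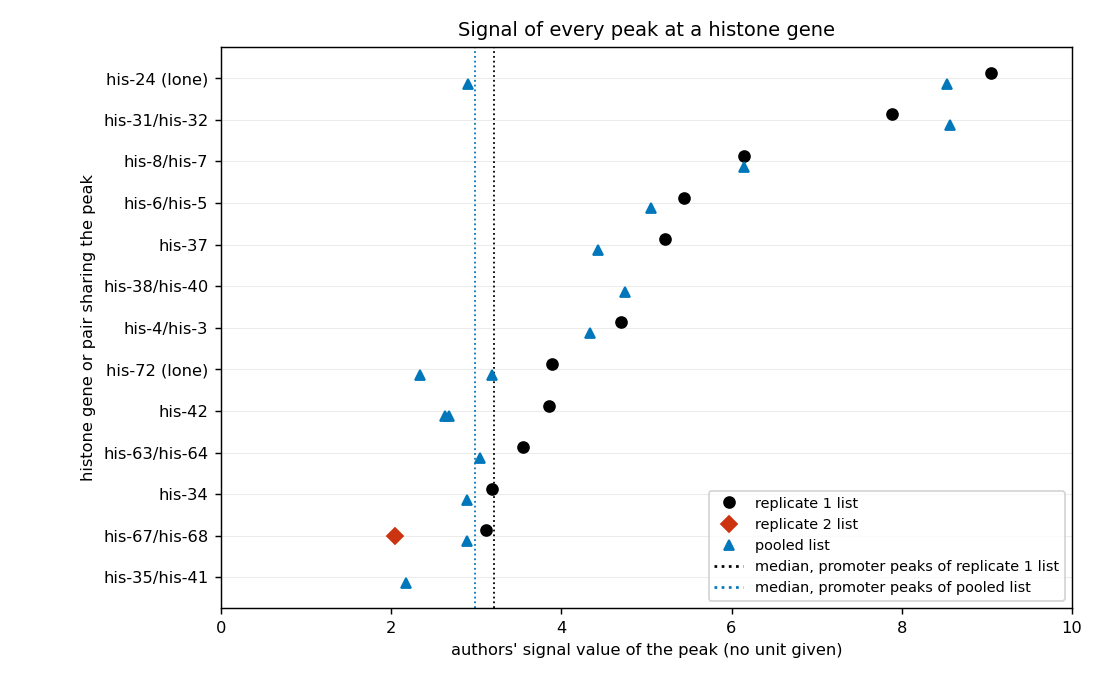
Signal of every peak with a summit in a histone promoter window (x axis, the authors' value with no stated unit) for each gene or pair that shares it (y axis), with dotted lines at the medians of all promoter peaks. In replicate 1 the values run from 9.05 at his-24 to 3.11 at his-67/his-68, and the only replicate 2 value is 2.04.

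Summits lay between the starts of 3 of 14 H3/H4 pairs and 2 of 16 H2A/H2B pairs in replicate 1, and of 4 of 14 and 3 of 16 in the pooled list. Over all head-to-head protein-coding pairs the shares were 16% in replicate 1 and 17.4% in the pooled list, and all of these counts but the pooled H3/H4 one (28.6%) came to between 12.5% and 21.4%. The strongest was at his-31 and his-32 (H4 and H3), with signal 7.89 and rank 383 in replicate 1 and signal 8.57, rank 339 and q = 0.0103 in the pooled list. Its summit at IV:8334141 was the same base in both lists, 158 bp upstream of his-31 and 164 bp upstream of his-32, in intergenic sequence. At his-6 and his-5 (H3 and H4) the signal was 5.44 (rank 950) in replicate 1 and 5.05 (rank 1167, q = 0.0381) in the pooled list. At his-63 and his-64 (H3 and H4) it was 3.55 (rank 2068) in replicate 1 and 3.04 (rank 3458, q = 0.356) in the pooled list, and there the summit lay in an exon of the noncoding RNA F22B3.19. At his-38 and his-40 (H4 and H3) there was a pooled peak of signal 4.75 (rank 1328, q = 0.0494) but none in replicate 1, whose nearest summit was 3357 bp away.

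The his-31/his-32 spacer differed most from its kind, at no more than 58.8% identity to any of the other 13 H3/H4 spacers. The 121 bases centred on its summit (IV:8334081-8334201, plus strand) are shown because they carry the strongest peak at a core histone pair, with the PHA-4 site in capitals.
his-31/his-32 summit: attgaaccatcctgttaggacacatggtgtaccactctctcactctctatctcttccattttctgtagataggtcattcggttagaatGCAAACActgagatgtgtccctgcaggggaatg
That site lay within 60 bp of the summit.

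Among the H2A/H2B pairs, his-8 and his-7 (H2B and H2A) had signal 6.15 in both the replicate 1 list (rank 701) and the pooled list (rank 769, q = 0.015), with the summit at V:8533267 in each. At his-4 and his-3 (H2B and H2A) the signal was 4.7 (rank 1246) in replicate 1 and 4.34 (rank 1612, q = 0.0822) in the pooled list. The third pair, his-35 and his-41 (H2A and H2B), had only a pooled peak of signal 2.17 (rank 6645, q = 0.79), at the start of his-35. Their neighbour his-37, an H4 gene that has an intron and no head-to-head partner, had signal 5.22 (rank 1022) in replicate 1 and 4.43 (rank 1549, q = 0.0727) in the pooled list. Its summit at V:9546948 was 157 bp upstream of its start in both lists. The 121 bases around it (V:9546888-9547008, plus strand) are shown as the strongest peak at a core histone gene outside a pair, again with the PHA-4 site in capitals.
his-37 summit: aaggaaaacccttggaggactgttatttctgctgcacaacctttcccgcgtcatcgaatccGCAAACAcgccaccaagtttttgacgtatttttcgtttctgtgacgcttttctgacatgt
A window of 100 bp to each side of the his-37 summit held 2 matches, 1 of which falls outside the printed stretch.

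At 5 of the 6 pairs with a replicate 1 summit between their starts, that summit lay near the middle of the spacer. In replicate 1 the distance from summit to middle was 2.5 bp at his-63/his-64, 3 bp at his-31/his-32, 8.5 bp at his-6/his-5, 11.5 bp at his-4/his-3 and 34.5 bp at his-8/his-7. The spacers of these 5 pairs were 236 to 321 bp long and the replicate 1 peaks were all 344 bp wide, so neither partner can be given the peak rather than the other. The sixth pair, his-67/his-68, had its summit 106 bp from the middle of a 368 bp spacer. The pooled summit of his-35/his-41 lay 124 bp from the middle of a 247 bp spacer, at its edge.

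Among genes with a his- symbol, linker histone had the highest signal in replicate 1. In the pooled list the signal at his-31/his-32 was higher, at 8.57. The peak at his-24, a lone gene with 1 intron, had signal 9.05 and rank 268 in replicate 1, and signal 8.53, rank 346 and q = 0.0101 in the pooled list. The summits lay 56 and 18 bp upstream of the his-24 start, in an exon of the noncoding RNA M163.19, and the nearest start of another protein-coding gene was 4700 bp from the replicate 1 summit. A second pooled peak, of signal 2.9, rank 3849 and q = 0.407, lay 802 bp upstream. The nearest replicate 2 summit was 12980 bp from that of replicate 1. The 121 bases around the replicate 1 summit (X:14489978-14490098, plus strand) are shown as the strongest replicate 1 peak at a his- gene. They hold no PHA-4 site.
his-24 summit: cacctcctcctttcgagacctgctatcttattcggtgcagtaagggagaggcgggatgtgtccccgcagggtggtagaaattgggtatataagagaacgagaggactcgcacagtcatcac
No PHA-4 site lay within 100 bp of this summit or of the points 500 bp to its left and right.

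Of the 5 genes for H3.3 and H3.3-like proteins, his-72 alone had a peak. Its signal was 3.89 (rank 1705) in replicate 1 and 3.19 (rank 3178, q = 0.29) in the pooled list, with the summit at III:12369695 in both, 645 bp upstream of the his-72 start and 761 bp upstream of the start of rpt-6, which encodes a proteasome ATPase. A weaker pooled peak, of signal 2.34, rank 5917 and q = 0.698, lay in a coding exon, 489 bp downstream of a start. No summit lay in the windows of his-71, his-74, his-69 or his-70 in any list.

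The remaining peaks lay at the edges of clusters or farther from a start. Of the 13 genes of the largest cluster, 12 had no summit. The exception was the H3 gene his-42 at its right end, with signal 3.85 (rank 1789) in replicate 1. It had 2 pooled peaks of 2.68 and 2.63 (ranks 4487 and 4667, q = 0.503 and 0.558). The his-42 summit of replicate 1 at II:13829528 lay 831 bp upstream of its start, and 37 bp upstream of the start of the small nuclear RNA gene C47F8.9. The weaker pooled summit lay in exons of C47F8.9 and of the noncoding RNA R05D7.8. At his-34 (H2B) the signal was 3.18 (rank 2592) in replicate 1 and 2.89 (rank 3906, q = 0.404) in the pooled list. The summit lay 933 bp upstream of the his-34 start, with his-33 the nearer gene at 679 bp downstream of its start.

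By histone class in replicate 1, peaks were counted at 3 of 17 H2A (17.6%), 3 of 16 H2B (18.8%), 4 of 15 H3 (26.7%) and 5 of 16 H4 genes (31.2%), and at 1 of 5 H3.3 genes (20%) and the single linker gene. The share of all protein-coding genes was 14.3%, close to the H2A and H2B shares and inside the interval of every core class. The fragments his-39 and his-73 had none in any list. The exact intervals of the core classes overlap widely, from 3.8 to 43.4% for H2A to 11 to 58.7% for H4. Genes with introns had a replicate 1 peak at 3 of 8 (37.5%, 8.52 to 75.5) and a pooled peak at 5 of 8 (62.5%, 24.5 to 91.5). Those without introns had one at 14 of 64 (21.9%, 12.5 to 34) and 16 of 64 (25%, 15 to 37.4). All protein-coding genes stood at 14.3% and 17.8%. Of the 5 intron genes with a pooled peak, his-35 and his-41 share 1 peak (q = 0.79) and lie in 1 cluster with his-37. Windows of genes with introns also had few 36-base runs repeated elsewhere in the genome (at most 2.05%), except that of his-57 (94.2%). The part of introns in these counts was not tested.

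Clusters and lone genes did not separate. In replicate 1, 15 of 67 cluster genes had a peak (22.4%, 13.1 to 34.2), against 2 of 5 lone genes (40%, 5.27 to 85.3), with 14.3% of all protein-coding genes inside both intervals. Pooled counts were 19 of 67 cluster genes (28.4%, 18 to 40.7), against the same 2 of 5 lone genes. The 17.8% of all protein-coding genes lay just below the cluster interval, which treats genes that share a peak as independent. With joined windows, 8 of 31 cluster windows (25.8%, 11.9 to 44.6) held a replicate 1 summit, against 2 of 5 lone windows. Per cluster, 7 of 15 had a gene with a replicate 1 peak and 8 of 15 one with a pooled peak. Joined windows and clusters cover several genes, so the shares of single genes are no background for these counts. With 5 lone genes the interval of their share holds that of the cluster genes throughout, so a difference was not detectable at this number.

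Among the 72 histone genes, those with a peak had, at the median, less sequence repeated elsewhere in the genome than those without. Every run of 36 bases in a window was looked up in the whole genome on both strands and counted as repeated where it occurred at another place. The median share of repeated runs was 79.3% over the histone windows, against 0% over all protein-coding windows. It was 50% or more at 41 of 72 histone genes (56.9%), against 515 of 19985 protein-coding genes (2.58%). The 17 histone genes with a replicate 1 peak had a median of 31.8% repeated, and the 55 without had 90%. The 21 with a peak in any list had 21.5%, and the other 51 had 93%. How reads that match several places were treated is not known from the sources at hand, and the part of repeated sequence in the result was not tested.

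Split by that share, 15 of the 31 histone genes whose windows were under 50% repeated had a replicate 1 peak (48.4%, 30.2 to 66.9), against 14.7% of all protein-coding genes under the same limit. Pooled peaks were at 19 of 31 (61.3%, 42.2 to 78.2), against 18.3%. In replicate 2 it was 2 of 31 (6.45%, 0.791 to 21.4), against 3.19%. Within these 31 genes, the replicate 1 share did not fall as repetition rose. It was 5 of 11 (45.5%) under 10% repeated and 10 of 20 (50%) at 10 to 50%. All protein-coding genes stood at 15.5% and 8.4% there. At 50% or more repeated, 2 of 41 histone genes had a replicate 1 peak (4.88%), against 7 of 515 protein-coding genes (1.36%). Paired genes that share a peak were counted singly in this split, so the genes are not independent and the intervals are too narrow. The limit also divides 1 shared peak, with his-64 (47.1% repeated) among the 15 and his-63 (50.9%) among the 2. The other of the 2 was his-34 (91.5%). The replicate 1 peaks of his-63 and his-34 themselves had 25.9% repeated words each. With words of 50 bases the upper count was 1 of 40 histone genes (2.5%), against 6 of 438 protein-coding genes (1.37%). Under the 50% limit the order of clusters and lone genes turned, with a replicate 1 peak at 13 of 26 cluster genes (50%) and 2 of 5 lone genes (40%). This split was chosen after seeing the data.

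**Figure D3:**
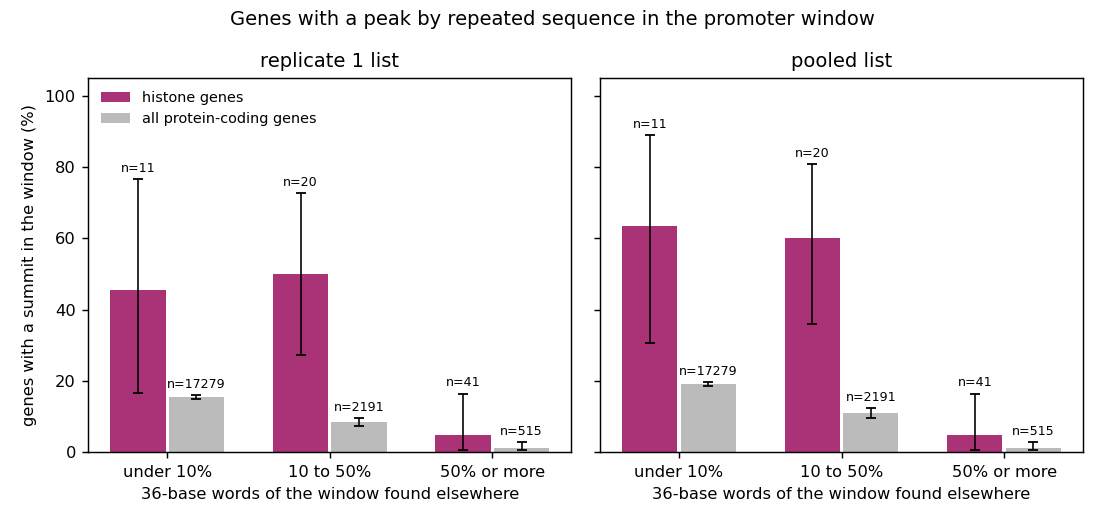
Percent of histone genes (left bars) and of all protein-coding genes (right bars) with a summit in the promoter window, by the share of 36-base words of that window found elsewhere in the genome, in the replicate 1 and pooled lists, with exact 95% intervals and the number of genes. Histone genes in replicate 1 stand at 45.5% with under 10% repeated words, at 50% with 10 to 50% and at 4.88% with 50% or more.

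**Figure D4:**
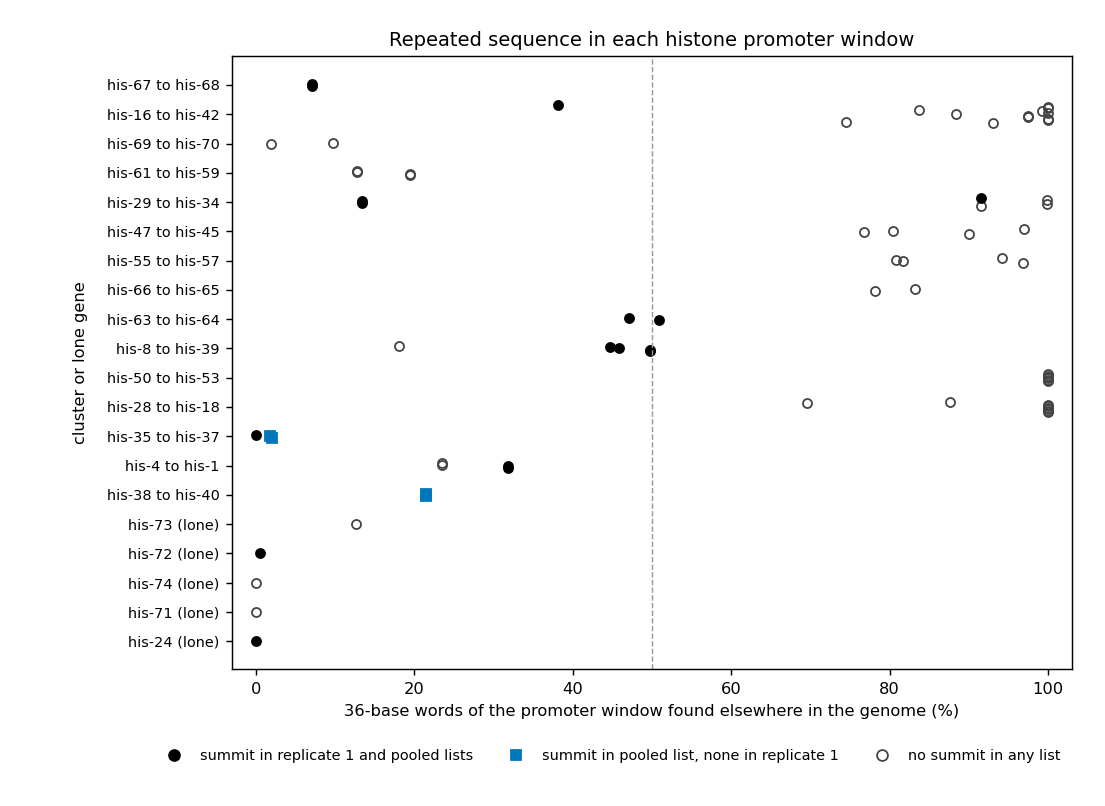
Share of repeated 36-base words in the promoter window of each of the 72 histone genes (x axis, percent), by cluster or lone gene (y axis), with fill for a summit in the replicate 1 and pooled lists or the pooled list alone. Of the 21 filled points, 19 lie left of the dashed line at 50%, and the points at 100% are all open.

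The clusters with no peak fall into both kinds of sequence. The neighbouring chromosome V clusters from his-50 to his-53 (V:8847393-8854053) and from his-28 to his-18 (V:8889488-8898539) hold 6 and 8 genes, and the median share of repeated words was 100% in each. On chromosome IV, the clusters his-47 to his-45, his-55 to his-57 and his-66 to his-65 had medians of 85.2%, 87.9% and 80.7%. Against these stand the cluster his-61 to his-59 on chromosome IV (IV:7485834-7488659), with 4 genes and a median of 16.1%, and the H3.3-like pair his-69 and his-70 on chromosome III, with 5.83%. Both had mostly unique sequence and lacked a summit in every list.

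The same contrast showed between spacers. A replicate 1 summit lay between the starts of 6 of 31 histone pairs (19.4%, 7.45 to 37.5), against 16% of all 916 head-to-head protein-coding pairs. A pooled summit lay there at 8 of 31 (25.8%, 11.9 to 44.6), against 17.4%. These 8 include the weak his-35/his-41 peak (q = 0.79), whose summit was on the start base of his-35. In replicate 2 the count was 0 of 31 (0 to 11.2), against 0.437%. The 8 spacers with a replicate 1 or pooled summit had 0 to 20.6% repeated words, with a median of 0%. Of the 23 without, 18 had 95% or more. Spacers under 50% repeated held a replicate 1 summit at 6 of 11 histone pairs (54.5%, 23.4 to 83.3), against 17.1% of all such pairs, and a pooled summit at 8 of 11 (72.7%, 39 to 94), against 18.4%. Spacers at 50% or more repeated held none, at 0 of 20 histone pairs and 0 of 21 other pairs in each list. Another 3 histone spacers had no repeated word and no summit, those of his-2/his-1, his-61/his-62 and his-60/his-59.

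The PHA-4 site was no more frequent at histone summits than at promoter summits in general. It lay within 100 bp of 5 of 11 replicate 1 summits at histone genes (45.5%) and in 9 of 22 flanking stretches of the same width (40.9%). For all promoter peaks of replicate 1 it was 58.8% of summits and 48% of flanks. Among pooled peaks it was 6 of 16 histone summits (37.5%), against 56.3% of all promoter peaks. The spacers held it at 23 of 31 histone pairs (74.2%), against 68.2% of the other 885 pairs. Of the 8 spacers with a summit 4 held a site, and of the 23 without 19 did. Many of those 23 were identical copies, such as the spacers of his-51/his-52, his-54/his-53, his-21/his-22 and his-20/his-19. Counts over spacers are therefore not counts of separate sequences, and whether the site goes with the lack of a summit was not tested. The sequence TATAAA, on either strand, was in 24 of 31 histone spacers (77.4%), against 38.6% of the other pairs. Over whole promoter windows the PHA-4 site was in those of 99% of all protein-coding genes, and of all 72 histone genes.

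Some summits lay close to the window limits, and these limits decided a few members. Just inside were his-34, 67 bp within the upstream limit, and the exon peak of his-72, 11 bp within the downstream limit. The only replicate 2 peak was also near them. It lay 48 bp within the downstream limit of his-68 and 179 bp within the upstream limit of his-67. Just outside were his-31, 56 bp beyond the limit for the his-34 peak, and his-41, whose nearest replicate 1 summit (signal 2.54, rank 4076) lay 55 bp too far upstream. Also outside were his-33 and his-32 on the downstream side of the his-34 peak, by 179 and 234 bp, and a second summit 172 bp beyond the limit of his-72 (signal 3.13, rank 2677). Of these genes, his-31, his-32 and his-72 were members in any case, through another summit well inside their windows.

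Apart from one pair, no histone peak of replicate 1 had a replicate 2 summit nearby. The nearest were 7920 to 77553 bp away. The exception was the pair his-67 and his-68 (H4 and H2A) on chromosome I. Its replicate 1 peak had signal 3.11 and rank 2684, with the summit between the starts, 291 bp upstream of his-67 and 78 bp upstream of his-68. Its replicate 2 peak had signal 2.04, rank 1635 of 1729 and q = 0.858, with the summit 452 bp downstream of the his-68 start. The summits were 530 bp apart and the peaks did not overlap. The replicate 2 summit lay 218 bp upstream of alg-5, an Argonaute gene, so the only histone genes with a summit in both replicates had them at different places.

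Genes with histone roles outside the his symbols were taken as a list of 25, made of linker genes, variants, the stem-loop binding protein of histone mRNA, chaperones and an acetyltransferase of new histones. Of these, 11 of 25 (44%) had a replicate 1 peak, 3 of 25 (12%) a replicate 2 peak and 10 of 25 (40%) a pooled peak, against the 14.3%, 3.11% and 17.8% of all protein-coding genes given above. Linker genes had a replicate 1 peak at 3 of 8, led by hil-7 with signal 9.2 and rank 258, close to his-24 at rank 268. In the pooled list hil-7 had signal 8.64 (rank 330, q = 0.0106). The other 2 linker peaks of replicate 1 were at hil-3 (signal 4) and hil-8 (signal 2.99). Their pooled peaks had signal 4.17 (q = 0.102) and 2.99 (q = 0.354), and hil-2 had a pooled peak alone (signal 3.38, q = 0.236).

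Among the variants, htz-1, which encodes H2A.Z, had signal 5.79 (rank 817) in replicate 1 and 4.06 (rank 1868, q = 0.11) in the pooled list. The centromeric H3 gene hcp-3 had 3.17 (rank 2612) in replicate 1 and 4.75 (rank 1321, q = 0.0496) in the pooled list, while its close relative cpar-1 had no summit. The gene for the stem-loop binding protein, cdl-1, had 2.81 (rank 3090) in replicate 1 and 3.41 (rank 2702, q = 0.235) in the pooled list.

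Chaperone and acetyltransferase genes had a replicate 1 peak at 5 of 13 (38.5%), against 14.3% of all protein-coding genes, and a pooled peak at 3 of 13 (23.1%), against 17.8%. The H3/H4 chaperone gene nasp-1 was the single gene of the list with a summit in both replicates, with signal 4.85 (rank 1176) in replicate 1, 417 bp upstream, and 2.96 (rank 244, q = 0.405) in replicate 2, 29 bp upstream. In the pooled list nasp-1 had signal 5.04 (q = 0.0386). The others of replicate 1 were lin-53, a histone-binding WD40 gene (signal 5.33, rank 982), hat-1, the acetyltransferase (3.4), chaf-2, a chromatin assembly factor subunit (2.73), and hmg-4, a FACT subunit (2.59). Of these, chaf-2 and hmg-4 had no pooled summit. The pooled peak of lin-53 had signal 4.22 (q = 0.0986). At hat-1 the replicate 1 summit lay 252 bp upstream. The stronger of its 2 pooled peaks, of signal 2.18 (rank 6608, q = 0.794), lay 979 bp upstream. Replicate 2 alone had unc-85, an Asf1 homologue, and rba-1, a relative of lin-53, each with signal 2.04 and a q-value of 0.854 or more.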

How the data were processed

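Peaks of eGFP-tagged PHA-4 in late embryos were read from the lists of 2 replicates, the pooled list and the final list in ce11. Each deposited peak carries the authors' signal value, which they computed with a control (2 control alignments, per the labels' file listing) and whose scaling is not stated, and a q-value, deposited on the −log10 scale. The aligner, peak caller, read length and treatment of reads with several matches were not found in the labels or file headers (not given in the sources used here). Lists in ce10 were not used, as no annotation of that build was at hand. Library depth is unknown.

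Summits were taken as column 2 plus column 10 and are given 1-based. They were placed on Ensembl release 115 starts (WBcel235), with names and sequence from RefSeq of the same assembly. Distinct peaks, clusters, joined windows, repeated words of 36 bases, PHA-4 sites within 100 bp of summits and spacer identity (global alignment, identical bases over aligned length) were computed with Python 3.11.15, numpy 2.4.6, scipy 1.17.1 and Biopython 1.88, and plots were drawn with matplotlib 3.10.9. The code was tested on simulated data. The single group allows no comparison of conditions, so no p-values were computed. The main counts stand beside the same over all protein-coding genes, with exact Clopper-Pearson 95% intervals. Named genes are histone genes with a summit in a window or within 250 bp of its limits, and genes of the histone-related list with a summit. The his genes with no summit named with their clusters and spacers, their neighbours, and the printed sequences, were added with their values in view. The members and lists were chosen with earlier results of these data known.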

Additional observations from a re-analysis of the deposited data

How the results depend on the processing

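Results were recomputed with other sets of peaks, windows, rules of assignment, cluster distances and word lengths, and with each replicate left out. Of 59 recomputed values, 42 stayed within their margin, 14 moved and 3 turned direction. The 17 histone genes with a peak in either replicate became 7 with the 1000 peaks of highest signal per list, 3 with the top 500, 10 when a summit went to its nearest protein-coding start alone and 2 when both replicates were required, with 2 to 17 on leaving out a replicate, the low value being without replicate 1. The 12 distinct peaks of both replicate lists became 4, 2 and 2 with the top 1000, the top 500 and both replicates, with 1 to 11 on leaving out a replicate. The 13 histone-related genes with a peak in either replicate became 4, 2 and 1 in the same order, with 3 to 11. The 2 distinct peaks left with both replicates are 1 of each replicate at his-67/his-68. Their summits lay 530 bp apart and they did not overlap, so no single peak was shared by both replicates. No share of all protein-coding genes stands beside the counts for the top 1000, the top 500, the nearest start or both replicates. Whether those counts moved against that share is therefore not shown. The share of cluster genes minus that of lone genes was −17.6 percentage points. It turned to 2.99 without replicate 1 and when both replicates were required, and to 10 over windows under 50% repeated, an alternative chosen after seeing the data, as were the leave-outs for the PHA-4 site and the counts over head-to-head pairs. Leaving out a replicate gave −17.6 to 2.99. The share of histone summits of both replicates with a PHA-4 site was 50%, and 45.5 to 100% on leaving out a replicate, the high value resting on the 1 summit of replicate 2. With words of 50 or 100 bases, 40 histone windows were 50% or more repeated, against 41 with 36. No paired analysis was possible because there is 1 group. With depth unknown, a gene without a summit is not shown to lack binding, and the few peaks of replicate 2 limit what both replicates can share.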
